A study of Mus musculus with 8 samples.

Results

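Genes that mark neurons of the thalamus and the habenula, 9 in all, were followed across 8 RNA-seq libraries of mouse corpus callosum: Tcf7l2, Lef1, Gbx2, Rora, Prkcd, Slc17a6, Synpo2, Calb2 and Ramp3. They were the rows of the raw count table whose gene symbol equalled a listed name, and all 9 of 9 were found among its 41128 genes. All mice were PLP-150Q, a transgenic line whose oligodendrocytes express mutant huntingtin with an expanded polyglutamine tract, which models Huntington's disease in that cell type. The controls thus carried the transgene as well, and mice without it were not analysed here. Treatment began at 3 months of age and lasted 2 months, to an age of 5 months, with LAQ at 5 mg/kg in 4 libraries (LAQ 5 to 8) and purified water in 4 libraries (control 1 to 4). LAQ was taken to stand for laquinimod, an immune-modulating drug given by mouth. The comparison asked how gene expression in the dissected tissue differs with LAQ. The design counts 4 mice in each group, but no label ties a library to an animal, and where libraries shared an animal the p-values would measure only technical spread.

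The thalamus relays sensory and motor signals to the cortex through glutamatergic neurons, and the habenula, its small dorsal neighbour, projects to the midbrain. Neurons of both structures form from the same embryonic region, the diencephalon, and keep the Wnt effector Tcf7l2 into adult life, whereas cortical excitatory neurons rely mainly on another vesicular glutamate transporter, Slc17a7. The corpus callosum lies dorsal to these nuclei and separated from them by the hippocampal commissure, the fornix and the third ventricle, and holds few neuronal cell bodies of its own. None of the 9 genes is restricted to the thalamus. Newly formed oligodendrocytes also express Tcf7l2, brain endothelial cells Lef1, upper-layer cortical neurons and astrocytes Rora, and interneurons and migrating neuroblasts Calb2.

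In these pieces, 8 of the 9 markers averaged less in LAQ than in control and Calb2 did not. Of all tested genes, 50.3% had a negative log2 fold change. The markers were listed with earlier results of these data known. Tcf7l2 was 1.65-fold lower, Rora 1.41-fold, Ramp3 1.51-fold, Synpo2 1.49-fold and Gbx2 3.27-fold lower, yet no marker had an adjusted p under 0.05 in edgeR, and DESeq2 placed Rora alone under it. Control 1 held the most marker RNA and LAQ 6 and LAQ 8 the least, while LAQ 7 stood within the control range for all 9 markers. The share of all tested genes for which LAQ 7 did so was not counted. How large the differences were depended on which libraries were compared.

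The promoter sequences of the markers are shown because most of the genes varied together across libraries, Slc17a6 and Calb2 the least. The markers also include 2 transcription factors, Tcf7l2 and Lef1, that bind the same DNA motif. RefSeq start sites on GRCm38.p6 were matched for 8 of the 9 genes, with 14 windows of 250 bases before a start site. The TCF/LEF motif CTTTGA, searched on both strands, occurred in 2 of the 14 windows, those of an internal Lef1 start and of Prkcd, and in 13.8% of all 32851 windows. The longer form CTTTGAT, which contains it, was in 0 of 14 windows and 3.21% of all, and the ROR core motif AGGTCA was in 0 of 14 and 14.0% of all. The stretches below run 5′ to 3′ along the gene's own strand. The Tcf7l2 and Gbx2 stretches belong to the transcription factor genes with the largest differences, and hold none of the 3 motifs. These stretches hold 237 and 247 bases of their 250-base windows and stop at the outermost start in RefSeq or GENCODE, so the bases next to the window's own start site are not shown. In the 30-base stretches of Lef1 and Prkcd, capitals mark the motif, written as its reverse complement, with 174, 114 and 133 bases between it and the start site in the order shown.
Tcf7l2 (plus strand) chr19:55741560-55741796: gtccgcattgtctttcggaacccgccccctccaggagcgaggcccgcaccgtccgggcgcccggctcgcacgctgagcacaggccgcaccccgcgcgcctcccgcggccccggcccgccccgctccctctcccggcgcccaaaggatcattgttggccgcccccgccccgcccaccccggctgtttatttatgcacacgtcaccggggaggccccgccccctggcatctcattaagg
Gbx2 (minus strand) chr1:89931180-89931426: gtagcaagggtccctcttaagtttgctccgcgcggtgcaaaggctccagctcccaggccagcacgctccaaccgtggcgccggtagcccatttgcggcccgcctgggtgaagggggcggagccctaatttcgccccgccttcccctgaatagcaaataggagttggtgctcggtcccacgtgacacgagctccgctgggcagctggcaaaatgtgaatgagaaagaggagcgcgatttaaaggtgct
Lef1 (plus strand) chr3:131156102-131156131: taaaatacatggTCAAAGgaaaataggtat
Lef1 (plus strand) chr3:131156162-131156191: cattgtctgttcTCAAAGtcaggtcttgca
Prkcd (minus strand) chr14:30626330-30626359: aggacttgcaacTCAAAGaggctgagacgc

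In GRCm38 with the GENCODE M21 annotation all 9 are protein-coding genes. Tcf7l2 lies on chromosome 19 from 55741820 to 55933654, Lef1 on chromosome 3 from 131110471 to 131224356, Gbx2 on chromosome 1 from 89927956 to 89931179 and Rora on chromosome 9 from 68653786 to 69388246. Prkcd lies on chromosome 14 from 30595354 to 30626210, Slc17a6 on chromosome 7 from 51622006 to 51671119 and Synpo2 on chromosome 3 from 123076519 to 123236149. Calb2 lies on chromosome 8 from 110137502 to 110168210 and Ramp3 on chromosome 11 from 6658521 to 6677475. Whether reads were counted by strand is not given in the sources used here. Lef1, Rora, Synpo2, Gbx2 and Ramp3 are overlapped by a transcript on the opposite strand. If strand was not used in counting, reads from those could not be told apart from their own. Levels of these 5 are uncertain to that extent. Tcf7l2, Lef1, Synpo2 and Slc17a6 also overlap other annotated genes on their own strand, which counting by strand would not resolve. The levels of these genes are uncertain to that extent too.

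The libraries held 8790749 to 12021429 counted reads. By edgeR's quasi-likelihood test with Benjamini-Hochberg adjustment, 0 of 15771 tested genes (0.00%) had an adjusted p under 0.05, while 1750 had an unadjusted p under 0.05 and DESeq2 called 129. Differences between libraries of a group exceeded sampling noise for every pair, with chi-square values, divided by their degrees of freedom, of 4.07 to 5.76 in control, 7.44 to 8.43 among LAQ 5, 6 and 8, and 15 to 23.9 between LAQ 7 and these. LAQ 7 also stood apart in regional markers. Its summed level of 8 striatal projection neuron genes was 4130 CPM against 614.5 to 2153 in the other 7 libraries. That of 8 cortical excitatory genes was 723 against 1308 to 1642 CPM. LAQ 5 stood apart at the low end of the striatal sums, at 614.5 CPM, where the next lowest was 1645 CPM in LAQ 6. Its septal and cholinergic sum of 28.2 CPM was also the lowest, with 48.5 CPM in control 3 next. Because LAQ 7 differed most from the other libraries of its group, results on the markers are given with and without it. LAQ 5 was kept in both. Myelin genes were abundant in all pieces, with 12090 to 16790 CPM over 10 mature oligodendrocyte markers, so the defining genes of white matter were present in each. Neuronal RNA was present in each as well, with Slc17a7 of cortical excitatory neurons at 459 to 1228 CPM.

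Between genes, levels were compared per kilobase of exon. In control, Prkcd stood at 16.3 ± 6.14 CPM per kb, Ramp3 at 11.9 ± 2.88, Calb2 at 9.08 ± 0.54, Rora at 8.66 ± 1.45 and Slc17a6 at 6.50 ± 1.00 (SD, n = 4). Neighbours among these 5 overlapped within 1 SD. Below them came Tcf7l2 at 3.24 ± 0.68 CPM per kb, Lef1 at 2.25 ± 0.33 and Synpo2 at 1.70 ± 0.34, again overlapping their neighbours, and then Gbx2 at 0.76 ± 0.52. The steps from Slc17a6 to Tcf7l2 and from Synpo2 to Gbx2 exceeded the spread. In LAQ the order was the same except that Calb2 (9.41 ± 2.18 CPM per kb) preceded Ramp3 (7.90 ± 2.58), within their spread.

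Of the transcription factors, Tcf7l2, an HMG-box protein through which Wnt signals and beta-catenin act on genes and which maintains the identity of thalamic and habenular neurons, stood at 36.6, 23.2, 25.2 and 28.8 CPM in control 1 to 4. It stood at 20.0, 11.2, 24.4 and 13.1 CPM in LAQ 5 to 8. Only LAQ 7 reached into the control range, just above control 2. Control averaged 28.4 ± 5.92 CPM and LAQ 17.2 ± 6.13 CPM (SD, n = 4 each). This gave a log2 fold change of -0.73 ± 0.23 (SE), for which edgeR returned an adjusted p of 0.279, and an exact permutation p of 0.0571. Without LAQ 7 the 3 remaining LAQ values lay below all controls, and the log2 fold change was -0.95 ± 0.20 (SE, edgeR adjusted p = 0.0313).

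Rora, a nuclear receptor expressed in sensory relay nuclei, stood at 140.1, 109, 95.8 and 108 CPM in control 1 to 4 and at 79.9, 68.2, 97.7 and 76.3 CPM in LAQ 5 to 8. LAQ 7 was again the library of its group inside the control range, above control 3 alone. The means were 113 ± 18.9 and 80.5 ± 12.4 CPM (SD, n = 4 each), with a log2 fold change of -0.49 ± 0.13 (SE), an edgeR adjusted p of 0.228 and an exact permutation p of 0.0571. DESeq2 placed Rora past the threshold with an adjusted p of 0.047, and so did edgeR without LAQ 7 (-0.60 ± 0.11, SE, adjusted p = 0.0235). It was the only marker that DESeq2 called with all 8 libraries, where 0.669% of genes were called lower and 0.177% higher.

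Gbx2, a homeobox factor needed for thalamic nuclei to form and for thalamic axons to reach the cortex, was the rarest marker. It had 35, 12, 9 and 11 reads in control 1 to 4 and 3, 4, 13 and 2 reads in LAQ 5 to 8, or 3.34, 1.34, 1.03 and 0.91 CPM against 0.29, 0.36, 1.07 and 0.21 CPM. Control 1 alone held more than the other 3 controls together, and LAQ 7 lay between control 2 and control 3. The log2 fold change was -1.71 ± 0.58 (SE, edgeR adjusted p = 0.323), with -2.48 without LAQ 7 (adjusted p = 0.0553) and -1.10 without control 1 (adjusted p = 0.627). At these counts the size of the difference was poorly determined.

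Lef1, the close relative of Tcf7l2 that binds the same motif, stood at 22, 18.4, 16.5 and 22.4 CPM in control 1 to 4 and at 14.0, 7.11, 20.4 and 14.7 CPM in LAQ 5 to 8. The low value belonged to LAQ 6 and the high value of the group, within the control range, to LAQ 7. Its log2 fold change was -0.50 ± 0.24 (SE, edgeR adjusted p = 0.468). It was -0.74 without LAQ 7 (adjusted p = 0.0817) and -0.28 without LAQ 6 (adjusted p = 0.638). LAQ 6 was also the library in which endothelial genes were lowest.

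**Figure D1:**
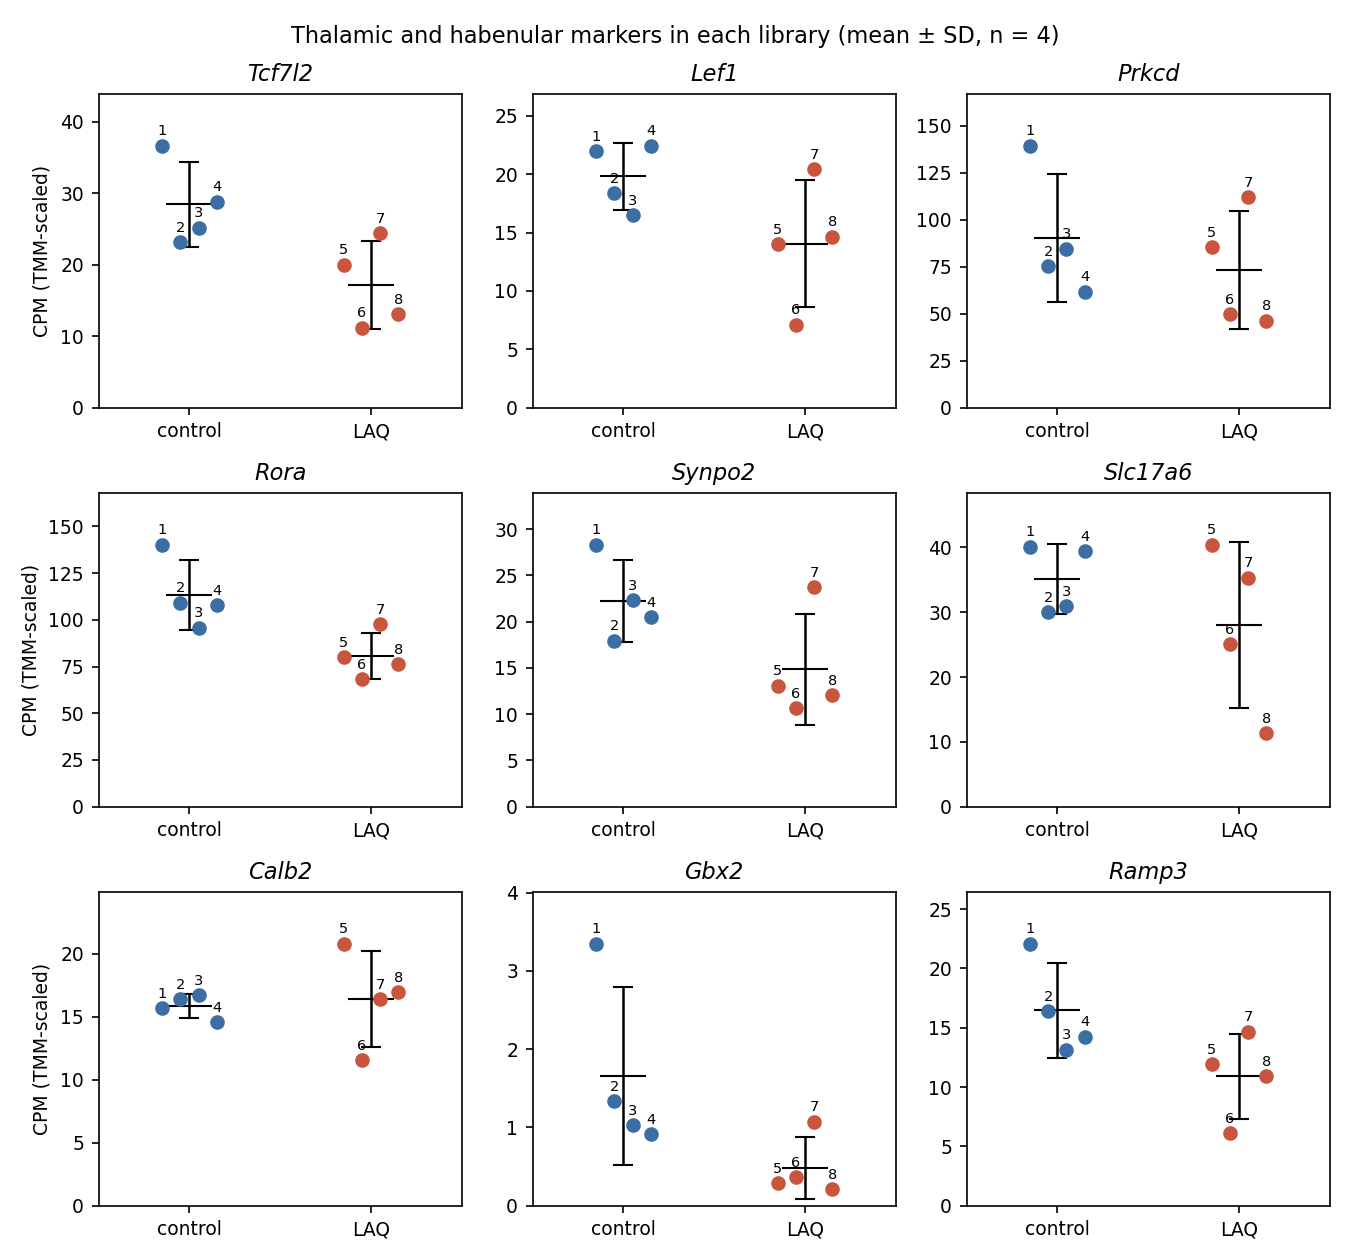
TMM-scaled CPM (vertical axis, from 0) of each of the 9 markers in every library, grouped as control (blue, libraries 1 to 4) and LAQ (red, libraries 5 to 8), with the group mean and SD as bars. The point of LAQ 7 lies inside the control range in all 9 panels, and control 1 is the highest of the controls in 7 of them. The same shares over all tested genes were not counted.

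Among the signalling and transmitter genes, Slc17a6 encodes VGLUT2, the transporter that loads glutamate into the vesicles of thalamic relay and lateral habenular neurons. It stood at 40.1, 30, 30.9 and 39.4 CPM in control 1 to 4 and at 40.4, 25.1, 35.3 and 11.3 CPM in LAQ 5 to 8. LAQ 5 was the highest of all 8 libraries and LAQ 8 the lowest, so the LAQ values enclosed the control values. The log2 fold change was -0.32 ± 0.28 (SE, edgeR adjusted p = 0.715) and was -0.06 without LAQ 8 (adjusted p = 0.934) and -0.45 without LAQ 7 (adjusted p = 0.401).

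Prkcd, the delta isoform of protein kinase C and an abundant kinase of thalamic relay neurons, stood at 139, 75.4, 84.7 and 61.7 CPM in control 1 to 4 and at 85.3, 49.8, 112 and 46.2 CPM in LAQ 5 to 8. The groups overlapped widely, with LAQ 5 and LAQ 7 above 3 of the 4 controls. Its log2 fold change of -0.30 ± 0.29 (SE, edgeR adjusted p = 0.752) rested on control 1, without which it was -0.0044 (adjusted p = 0.998). Without LAQ 7 it was -0.58 (adjusted p = 0.222).

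Ramp3, a membrane protein that pairs with the calcitonin and calcitonin-like receptors and sets their ligand preference, stood at 22.1, 16.4, 13.2 and 14.2 CPM in control 1 to 4. In LAQ 5 to 8 it stood at 11.9, 6.12, 14.7 and 10.9 CPM. The values of LAQ 5, 6 and 8 lay below every control, and LAQ 7 lay above control 3 and control 4. The log2 fold change was -0.59 ± 0.24 (SE, edgeR adjusted p = 0.400), or -0.78 without LAQ 7 (adjusted p = 0.0888) and -0.39 without LAQ 6 (adjusted p = 0.556).

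Of the structural and calcium-binding genes, Synpo2 encodes an actin-bundling relative of synaptopodin. It stood at 28.3, 17.9, 22.3 and 20.4 CPM in control 1 to 4 and at 13.1, 10.6, 23.7 and 12.1 CPM in LAQ 5 to 8. LAQ 7 was above 3 of the 4 controls. The log2 fold change was -0.58 ± 0.23 (SE, edgeR adjusted p = 0.403). Without LAQ 7 it was -0.90 ± 0.16 (SE, adjusted p = 0.0205), the smallest adjusted p of the 9 markers in that fit.

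Calb2, which encodes the calcium buffer calretinin of midline thalamic and many other neurons, stood at 15.7, 16.4, 16.7 and 14.6 CPM in control 1 to 4 and at 20.8, 11.5, 16.4 and 16.9 CPM in LAQ 5 to 8. Its controls were the tightest of the set, with a coefficient of variation of 5.97%, and its LAQ values spread to both sides of them. The log2 fold change was 0.05 ± 0.16 (SE, edgeR adjusted p = 0.933), with 0.05 without LAQ 7 and -0.08 without LAQ 5.

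Counted together, 5 of the 9 markers (Tcf7l2, Rora, Gbx2, Ramp3 and Synpo2) were lower in LAQ at an unadjusted edgeR p under 0.05, where 6.33% of all tested genes were, and 0 were higher, against 4.77% of all genes. The median log2 fold change was -0.50 over the markers and -0.0012 over all tested genes. All 9 passed the expression filter. Because the markers were listed with earlier results of these data known, the count is not independent evidence of a direction. The count was 7 without LAQ 7 (Lef1 and Prkcd in addition), where 10.8% of genes were lower, 2 without control 1 (Tcf7l2 and Rora), where 4.66% were, 3 without LAQ 6, where 5.48% were, and 3 without LAQ 8, where 5.22% were. Tcf7l2 and Rora kept an unadjusted edgeR p under 0.05 in each of the 8 fits that left out 1 library, Gbx2 in 7, Ramp3 in 4, Synpo2 in 3 and Lef1 and Prkcd in 1 each.

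With all 8 libraries, 0 of the 9 markers had groups that did not overlap, against 3.61% of all tested genes lower without overlap and 2.78% higher. Without LAQ 7 it was 6 of 9 (Tcf7l2, Lef1, Rora, Synpo2, Gbx2 and Ramp3), against 8.69%. For these 6, LAQ 7 was the only LAQ library inside the control range, so the count followed from leaving it out. Without LAQ 7 an edgeR adjusted p under 0.05 was reached by 3 of the 9 (Tcf7l2, Rora and Synpo2). Of all genes, 1.40% were then called lower and 0.736% higher. Among all alternative fits, this one gave the lowest adjusted p for every marker except Calb2, so these calls are not independent of the choice of library. In a bulk piece, fewer cells expressing these genes (thalamic or other), less of their RNA per cell and a different dissection cannot be told apart.

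**Figure D2:**
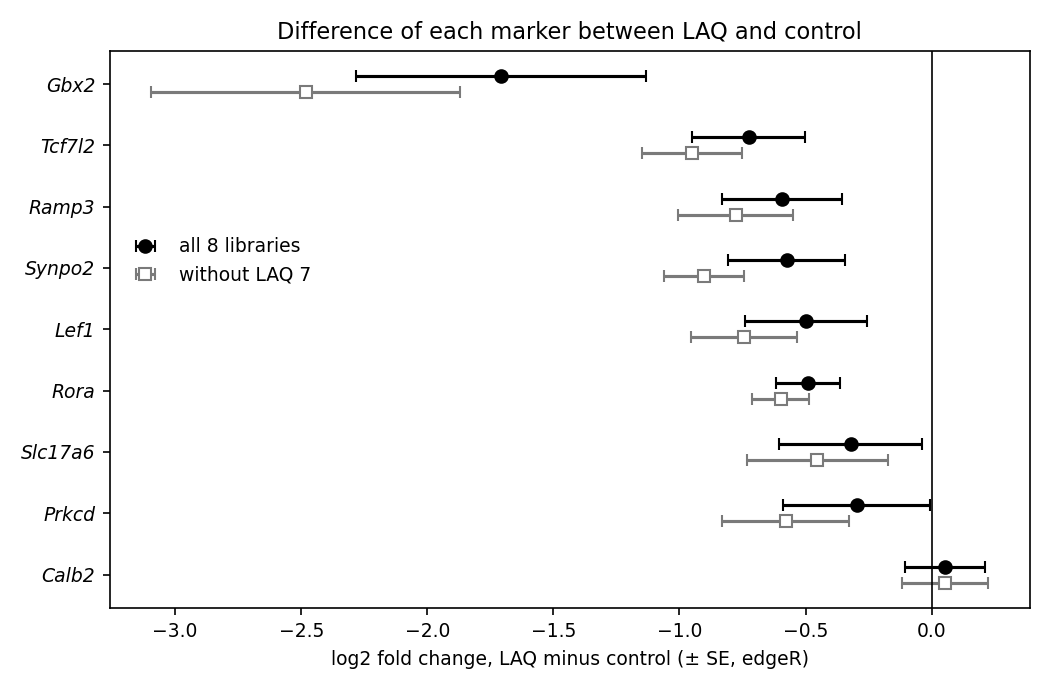
Log2 fold change (horizontal axis, LAQ minus control) of each marker with its SE from edgeR, with all 8 libraries (filled circles) and without LAQ 7 (open squares). In both fits 8 of the 9 markers lie left of zero, from -0.30 for Prkcd to -1.71 for Gbx2 with all libraries, and Calb2 lies at 0.05. With all 8 libraries, 50.3% of all tested genes have a negative log2 fold change.

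Most of the markers shared a library profile, Slc17a6 and Calb2 the least. On log2 CPM standardised per gene, the mean over the 9 was 1.182 SD in control 1, between 0.24 and 0.29 in the other 3 controls, -0.08 in LAQ 5, -1.44 in LAQ 6, 0.47 in LAQ 7 and -0.94 in LAQ 8. Control 1 was the highest of the 8 libraries for 6 markers, and LAQ 6 was the lowest for 6 and LAQ 8 for the other 3. All 9 markers were below every control in LAQ 6, 8 in LAQ 8, 6 in LAQ 5 and 0 in LAQ 7. The shares of all tested genes that were highest, lowest or below every control in each library were not counted. None of these counts thus has a background to be read against. Tcf7l2 lay nearest to the mean of the other markers, with a root mean square difference of 0.22 SD over the 8 libraries, followed by Ramp3 (0.35), Rora (0.40) and Synpo2 (0.40). Slc17a6 (0.85) and Calb2 (1.13) were farthest from it.

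**Figure D3:**
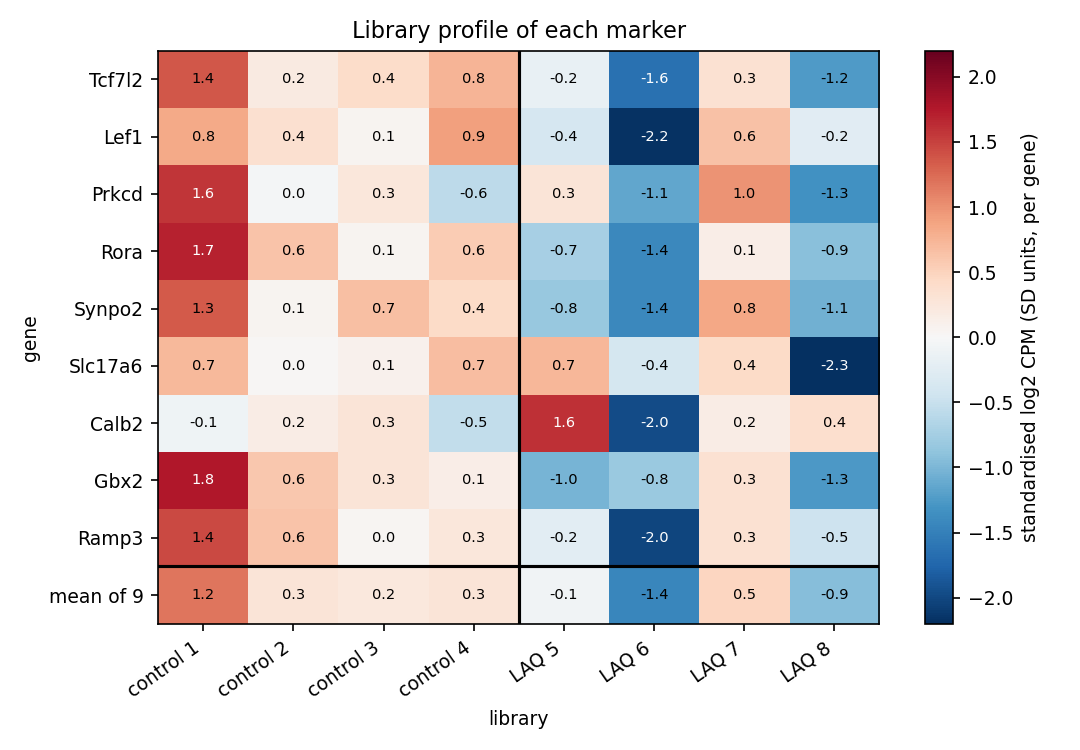
Log2 CPM standardised per gene (colour and printed value, SD units) for the 9 markers (rows) and their mean (bottom row) in the 8 libraries (columns). Control 1 is highest for 6 markers and LAQ 6 lowest for 6, while LAQ 7 has a mean of 0.47, above the other LAQ libraries. The same shares over all tested genes were not counted.

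Among 12858 other genes whose log2 CPM averaged 1 or more, the profile nearest to the mean of the markers belonged to Amotl1, a junction and angiomotin-family protein, with a root mean square difference of 0.20 SD against a median of 1.32 SD for all those genes. Amotl1 averaged 39.1 ± 6.78 CPM in the controls and 25.0 ± 8.90 CPM under LAQ (SD, n = 4 each), with a log2 fold change of -0.64 ± 0.21 (SE, edgeR adjusted p = 0.317). Next came Tbc1d12 (0.24 SD), Bbs10 (0.24), Rgs16 (0.26), Rnf144a (0.26), Adamts15 (0.27), Phf1 (0.28), Inadl (0.30), Crebzf (0.33) and Cables1 (0.33). Of these 10 genes, Amotl1 and Rgs16 were on the list of other thalamic relay genes. Their log2 fold changes were -0.69 to -0.12, a direction that their choice by likeness to the markers fixed. Gene by gene, the nearest profile was Bbs10 for Tcf7l2 (0.20 SD), Mrvi1 for Lef1 (0.22), Rnf144a for Prkcd (0.29), Ccdc136 for Rora (0.19) and Phf1 for Synpo2 (0.18). For Slc17a6 it was Stat6 (0.245), for Calb2 Lrrc73 (0.24), for Gbx2 Cenpt (0.15) and for Ramp3 Klf15 (0.18).

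Other genes of thalamic relay neurons were counted from a list of 14 that held no marker. Like the markers, this list was chosen with earlier results of these data known. Its counts are thus not independent evidence of a direction. Of these 14, 8 were lower in LAQ at an unadjusted edgeR p under 0.05 and 0 were higher. Among all tested genes 6.33% were lower and 4.77% higher. The median log2 fold change of the list was -0.39, and 0 had an edgeR adjusted p under 0.05. Lhx9, Zic1, Zic4 and Cbln1, named after their values were seen, averaged more in LAQ, at log2 fold changes of 0.04 to 0.38. Cbln2, a secreted synapse organiser, stood at 37.2, 33.6, 26.4 and 31.4 CPM in control 1 to 4 and at 22.2, 23.5, 18.4 and 18.1 CPM in LAQ 5 to 8. All 4 LAQ libraries, LAQ 7 included, lay below all controls, with a log2 fold change of -0.65 ± 0.13 (SE, edgeR adjusted p = 0.14, DESeq2 adjusted p = 0.00432). Adarb1, an RNA-editing deaminase, averaged 171 ± 11.7 CPM in the controls and 130.0 ± 12.7 CPM under LAQ (SD, n = 4 each), also without overlap (-0.39 ± 0.08, SE, edgeR adjusted p = 0.169, DESeq2 adjusted p = 0.00956). Rgs16, a brake on G-protein signalling enriched in relay nuclei, averaged 21.1 ± 2.16 and 13.1 ± 3.88 CPM without overlap (-0.68 ± 0.19, SE, edgeR adjusted p = 0.241).

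In all, 5 of the 14 relay genes were lower without overlap, against 3.61% of tested genes. Beside Cbln2, Adarb1 and Rgs16 these were Ntng1, a guidance molecule of thalamic axons (-0.41 ± 0.13, SE, edgeR adjusted p = 0.283), and the homeobox gene Shox2, both named after their values were seen. Shox2 stood at 7.74, 5.01, 6.52 and 4.39 CPM in control 1 to 4 and at 3.52, 0.09, 3.71 and 1.35 CPM in LAQ 5 to 8, so that LAQ 6 was nearly empty of it (-1.43 ± 0.53, SE, edgeR adjusted p = 0.361). Without LAQ 7, 8 of the 14 were again lower at an unadjusted p under 0.05, against 10.8% of genes. Rgs16, Amotl1, Adarb1 and Cbln2 then had an edgeR adjusted p under 0.05 (0.0205 to 0.0381), against 1.40% of genes called lower. Without control 1 the count in either direction was 5, where 743 of 15931 genes were lower and 554 higher.

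Channels and receptors that shape the firing of relay neurons formed a list of 11, of which 5 were lower at an unadjusted edgeR p under 0.05 and 0 higher, with a median log2 fold change of -0.33, where 6.33% of all tested genes were lower. The count was 8 without LAQ 7, where the share over all genes was 10.8%. This list too was chosen with earlier results of these data known, so its counts are not independent evidence. Cacna1g, the T-type calcium channel behind the bursts of relay neurons, averaged 22.1 ± 2.90 CPM in the controls and 15.1 ± 1.56 CPM under LAQ (SD, n = 4 each), with a log2 fold change of -0.54 ± 0.13 (SE, edgeR adjusted p = 0.181, DESeq2 adjusted p = 0.0393). Kcnk3, a leak potassium channel, averaged 22.2 ± 2.94 and 15.8 ± 0.54 CPM (-0.50 ± 0.11, SE, edgeR adjusted p = 0.181, DESeq2 adjusted p = 0.0428). Cacna1i, the T-type channel of the reticular nucleus, stood at -0.34 ± 0.09 (SE, edgeR adjusted p = 0.236). These 3 were lower without overlap, LAQ 7 included, against 3.61% of tested genes. Cacna1h, the other T-type channel of the list, named after its values were seen, had the opposite sign, with 46.4 ± 3.62 CPM in the controls and 55.9 ± 10.4 CPM under LAQ (SD, n = 4 each; 0.27 ± 0.13 on the log2 scale, SE, edgeR adjusted p = 0.451). Hcn2, a pacemaker channel and the most abundant of the list, averaged 164 ± 13.7 and 140.4 ± 27.7 CPM with overlap. Most of these channels are expressed in cortical neurons too.

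Genes listed for the habenula differed widely in level. Pou4f1, the factor that defines habenular neurons, stood at 0.00 to 0.38 CPM and lay below the expression filter, and Gpr151, a receptor of habenular axons, stood at 0.25 to 3.15 CPM. In the controls Nwd2, Lrrc55 and Tac2 averaged 27.3, 17.7 and 5.76 CPM, and Gng8, Chrna3, Chrnb3 and Chrnb4 averaged 0.88 to 2.29 CPM. Pou4f1, Gpr151, Lrrc55 and the Chrn genes were named after their values were seen. Of 10 listed genes 9 were found and 8 tested, with a median log2 fold change of -0.16. Over all tested genes, 6.33% were lower and 4.77% higher at an unadjusted edgeR p under 0.05, and 10.8% lower without LAQ 7. Nwd2 alone was lower at an unadjusted edgeR p under 0.05, with 27.3 ± 1.15 CPM in the controls and 20.7 ± 6.03 CPM under LAQ (SD, n = 4 each), and -0.40 ± 0.18 on the log2 scale (SE, edgeR adjusted p = 0.439). Without LAQ 7 the count was 0. Of the label's regions, the habenula thus had its defining factor at or near 0 in every library. Of 4 genes of the reticular nucleus, the inhibitory shell of the thalamus, 0 had an unadjusted edgeR p under 0.05, and their median was -0.0024, while without LAQ 7 it was 1 of 4, lower, with a median of -0.27.

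Tcf7l2 and Lef1 act with beta-catenin, and 18 of 19 further genes of that pathway were tested. At an unadjusted edgeR p under 0.05, 1 was higher and 2 were lower, where 4.77% of all tested genes were higher and 6.33% lower. The median log2 fold change of the list was 0.03. Ctnnb1, beta-catenin itself, stood at 439 ± 15.5 CPM in the controls and 454 ± 23.4 CPM under LAQ (SD, n = 4 each; 0.05 ± 0.07 on the log2 scale, SE, edgeR adjusted p = 0.830). The corepressor Tle3 stood at -0.42 ± 0.12 (SE, edgeR adjusted p = 0.249), Apc, part of the complex that degrades beta-catenin, at -0.22 ± 0.07 (adjusted p = 0.303) and the ligase Znrf3, which removes Wnt receptors, at 0.44 ± 0.14 (adjusted p = 0.309). Without LAQ 7, 3 genes were lower and 2 higher, with a median of -0.07, where 1714 of 15898 genes were lower and 1418 higher.

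Of 20 close relatives and partners of the markers 17 were tested, and 2 were lower and 0 higher at an unadjusted edgeR p under 0.05. Among all tested genes 6.33% were lower and 4.77% higher. The median of the list was -0.0009. Without LAQ 7, 2 were lower and 2 higher, where 1714 of 15898 genes were lower and 1418 higher. Rorb then had an edgeR adjusted p of 0.0205. Rorb, the relative of Rora in layer 4 of the cortex, averaged 72.6 ± 3.75 CPM in the controls and 54.6 ± 12.5 CPM under LAQ (SD, n = 4 each), with a log2 fold change of -0.41 ± 0.13 (SE, edgeR adjusted p = 0.309). It stood at 70.7 CPM in LAQ 7 and at 41.4 to 57.0 CPM in the other LAQ libraries. Synpo, the relative of Synpo2, stood at -0.27 ± 0.08 (SE, edgeR adjusted p = 0.278). Slc17a7, the cortical glutamate transporter and the most abundant of the list, stood at 459 CPM in LAQ 7, the lowest of all libraries, and at 944 to 1228 CPM in the other 7 libraries.

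**Figure D4:**
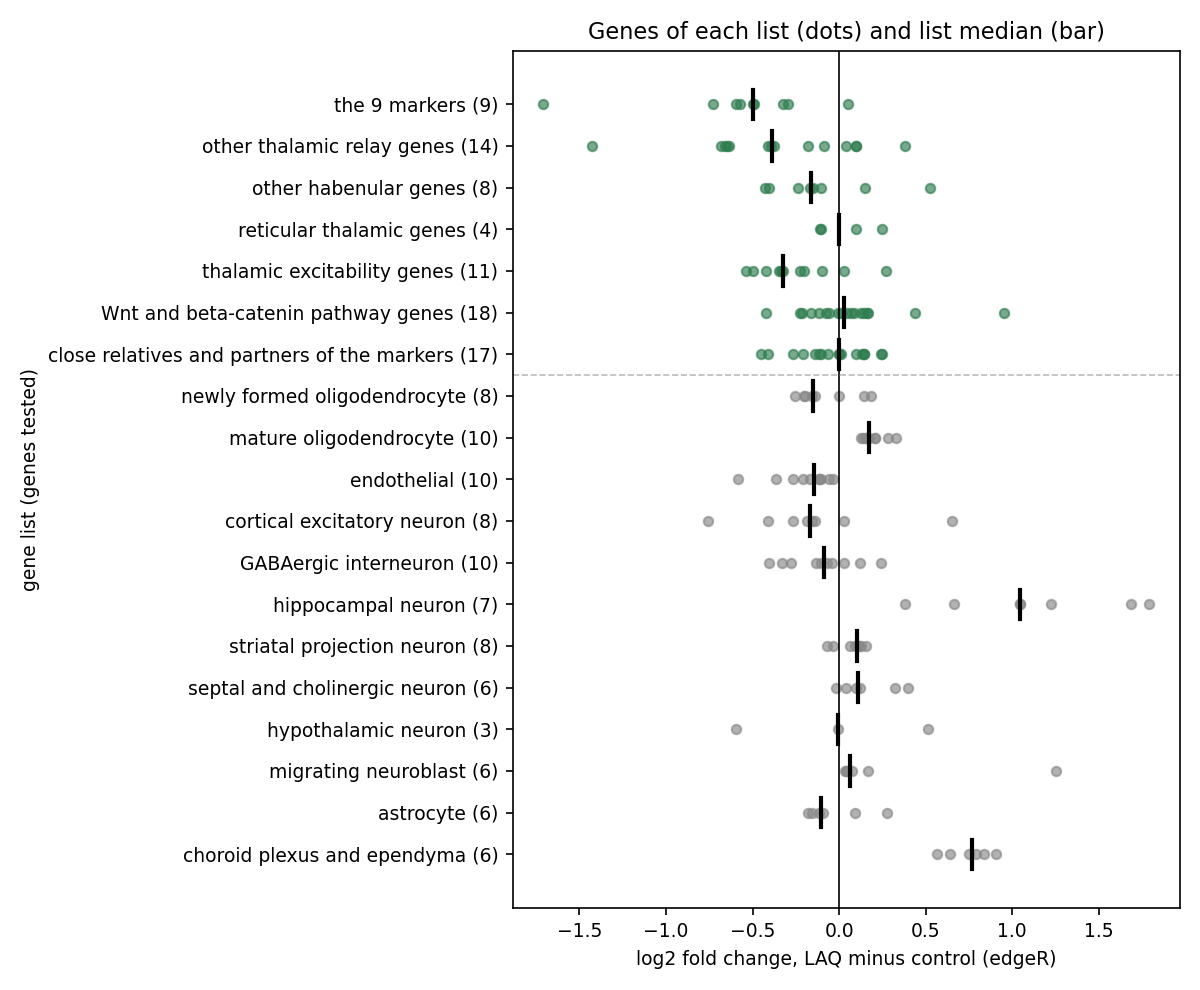
Log2 fold change (horizontal axis, LAQ minus control, edgeR) of each tested gene (dots) and the median (bar) of each list (vertical axis, number tested in brackets), with thalamic and related lists above the dashed line and other cell types below. The 9 markers and the relay genes have medians of -0.50 and -0.39, and the hippocampal list has a median of 1.04.

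Genes of other cells that the pieces could hold varied between libraries too. Of all tested genes, 6.33% were lower and 4.77% higher at an unadjusted edgeR p under 0.05, and 10.8% were lower without LAQ 7. A negative log2 fold change was held by 50.3% of tested genes. The 8 genes of newly formed oligodendrocytes, another source of Tcf7l2, summed to 555 to 644 CPM in control and 590 to 674 CPM in LAQ, and 0 of 8 had an unadjusted edgeR p under 0.05 (2 of 8 lower without LAQ 7). The 10 endothelial genes, another source of Lef1, all averaged less in LAQ, with 1 of 10 at an unadjusted p under 0.05 (Abcb1a; 3 of 10 without LAQ 7), and summed to 255 CPM in LAQ 6 against 369 to 479 in the other 7 libraries. The 6 astrocyte genes summed to 3171 to 3583 CPM in control and 3266 to 3632 CPM in LAQ, and the 6 genes of choroid plexus and ependyma to 380.2 to 2424 and 1265 to 3554 CPM (3 of 6 higher at an unadjusted edgeR p under 0.05). All 10 mature oligodendrocyte genes averaged more in LAQ, 4 of them at an unadjusted edgeR p under 0.05. The part of these cells in the values of the markers was not tested.

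Cortical and interneuron genes, whose cells also express Rora or Calb2, were lower in part. The shares over all tested genes were 6.33% lower and 4.77% higher at an unadjusted edgeR p under 0.05, and 10.8% lower without LAQ 7. Of 8 cortical excitatory genes, 2 were lower (Cux2 and Rorb) and 0 higher at an unadjusted edgeR p under 0.05, with a median of -0.17. Cux2, a factor of upper-layer neurons, stood at 43.9, 42.1, 31.5 and 42.5 CPM in control 1 to 4 and at 24.9, 21.1, 29.7 and 18.9 CPM in LAQ 5 to 8. All LAQ values lay below all controls (-0.76 ± 0.15, SE, edgeR adjusted p = 0.14, DESeq2 adjusted p = 0.00162), and without LAQ 7 the edgeR adjusted p was 0.0162. Neurod6, named after its values were seen, went the other way (0.65 ± 0.37, SE, edgeR adjusted p = 0.531). Without LAQ 7 its log2 fold change was 0.96 ± 0.18 (SE, edgeR adjusted p = 0.0214). Of 10 interneuron genes, 3 were lower (Npy, Sst and Vip) and 0 higher at an unadjusted edgeR p under 0.05, with a median of -0.09. Npy, a neuropeptide, averaged 128 ± 8.14 and 102 ± 11.7 CPM without overlap (-0.33 ± 0.09, SE, edgeR adjusted p = 0.24). Without LAQ 7, 9 of the 10 averaged less in LAQ and 3 were lower, of which Reln, named after its values were seen, had an edgeR adjusted p of 0.0434. The part of these neurons in the values of the markers was not tested.

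The sums over other regional lists differed in direction between libraries. The 7 hippocampal genes summed to 105 to 185 CPM in control and to 329, 301, 95.5 and 172 CPM in LAQ 5 to 8. All 7 averaged more in LAQ, where 7834 of 15771 tested genes had a positive log2 fold change. At an unadjusted edgeR p under 0.05, 4 were higher, against 4.77% of tested genes. Without LAQ 7 it was 7, where 1418 of 15898 genes were higher. LAQ 7, the LAQ library with the most marker RNA in sum (346 CPM against 190 to 286), was the library with the least hippocampal and cortical RNA and the most striatal and septal RNA. LAQ 6, with the least marker RNA, was second highest in hippocampal genes. LAQ 8, with 202 CPM of marker RNA, lay within the control range of hippocampal genes. LAQ 5 was highest in hippocampal genes and held 286 CPM of marker RNA. Whether the pieces reached differently into these regions was not tested.

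**Figure D5:**
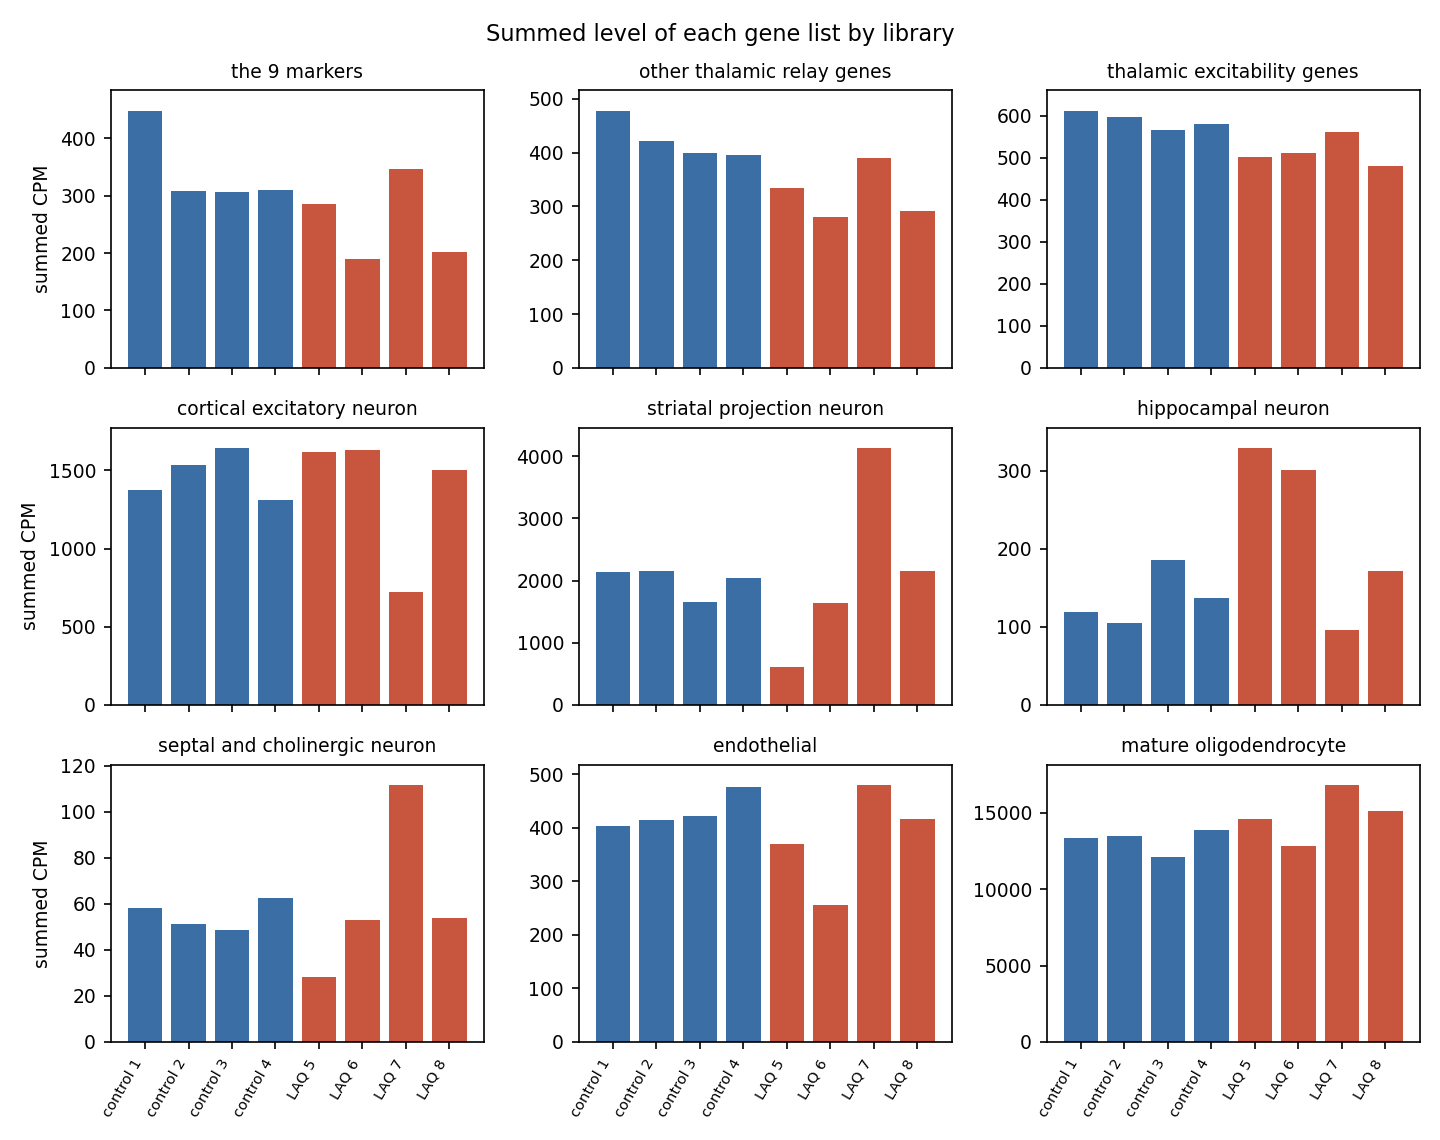
Summed CPM (vertical axes, from 0) of 9 gene lists in each library (control blue, LAQ red). The summed markers run from 190 CPM in LAQ 6 to 448 in control 1, and LAQ 7 has the highest striatal (4130) and lowest cortical (723) sums of the 8 libraries.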

How the data were processed

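RNA was measured by poly(A) RNA-seq in 8 libraries, 4 control and 4 LAQ by their titles. The authors deposited raw counts per gene symbol and a table of normalized signal, which is the count divided by 1 factor per library (largest relative deviation 5.1e-15) and served as a check only. Tools named in the submitters' processing notes are STAR 2.5.2b, HTSeq, DESeq2 1.10.1 and bcl2fastq 2.17.1.14, with the build GRCm38.p3. The annotation release and strand setting are not given in the sources used here. Both tables had 0 unused columns.

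Genes were filtered by edgeR's filterByExpr (minimum count 10, total 15), scaled by TMM and tested two-sided by quasi-likelihood F-test in edgeR 4.0.16 (under R 4.3.3, with limma 3.58.1 for voom), adjusted over 15771 genes with a threshold of 0.05. No covariate was used. SE is the fold change over the square root of F. CPM used the TMM factors, and log2 CPM a prior count of 2. Permutation p-values are exact, two-sided and unadjusted over 70 assignments, with 0.0286 the smallest possible. Steps were tested on simulated data. Alternatives included DESeq2 1.42.0, voom, other scalings and filters, and leaving out each library.

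The markers and lists were chosen with earlier results of these data known. Named genes were the 9 markers, up to 3 of smallest p and the most abundant of a list, and nearest profiles. Levels per kilobase used GENCODE M21 exon lengths, and the annotation behind the counts may differ.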

Additional observations from a re-analysis of the deposited data

How the results depend on the processing

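No paired analysis was possible because control libraries are numbered 1 to 4 and LAQ libraries 5 to 8, with no shared number. The count of genes past the adjusted threshold, 0 in edgeR, was 25 without an expression filter and 129 with DESeq2, and ranged from 0 to 339 when 1 library was left out, where 339 came without LAQ 7 and 0 without any other library. With 2 other scalings, a minimum of 1 CPM in 4 libraries, voom, robust estimation or a threshold of 0.1 it stayed 0. The markers with an unadjusted p under 0.05, 5 in edgeR, ranged from 2 (without control 1) to 7 (without LAQ 7), and those without overlap from 0 to 6. Of 135 refitted marker values, 130 kept their direction and side of the threshold, 4 passed it (Tcf7l2, Synpo2 and Rora without LAQ 7, and Rora with DESeq2) and 1 reversed, Calb2 at -0.0791 without LAQ 5 (range -0.0791 to 0.19 with 1 library left out). The cause of these shifts was not tested. The counts of the relay and channel lists under the alternatives were added after the data had been seen. Gbx2, with 2 to 35 reads per library, was limited by depth, and DESeq2 gave it no adjusted p. The other markers had 68 to 1466 reads per library.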

Other observations

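LAQ 7 also stood apart in the sum of a hypothalamic list, mainly through a single gene. The summed level of 9 hypothalamic neuropeptide and factor genes was 57.8 CPM in LAQ 7 and 6.21 to 12.7 CPM in the other 7 libraries. Most of it was Pmch, the melanin-concentrating hormone precursor of the lateral hypothalamus, with 41.9 CPM in LAQ 7 and 0.29 to 1.03 CPM elsewhere. Hcrt stood at 4.20 CPM in LAQ 7 and 0 to 0.33 CPM elsewhere, and Avp at 3.05 CPM against 0.22 to 2.65 CPM. The other genes of the list lay in LAQ 7 within the range of the other libraries. Pmch, Hcrt and Avp were named after their values were seen, and Pmch and Hcrt lay below the expression filter. Whether the piece of LAQ 7 reached into the hypothalamus was not tested. The migrating neuroblast list, whose cells express Calb2, summed to 63.2 to 72.7 CPM in control and 67.5 to 81.2 CPM in LAQ.

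Control 1 and LAQ 7 came close to standing apart from their groups for Gbx2. The gap to the nearest library was 0.825 of the group's range for control 1 and 0.824 for LAQ 7, just under Dixon's critical value for 4 libraries. The next was LAQ 7 for Synpo2, at 0.814.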
